A study of Homo sapiens with 36 samples.

Results

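The 50 genes described here encode the machinery that copies DNA and the enzymes that supply its nucleotides, together with E2F1, E2F2 and a few genes that are switched on with them in S phase. They were taken by gene symbol, and all 50 were found among the 58243 genes of the count table. In a dividing cell, replication origins are first licensed: the origin recognition complex, CDC6 and CDT1 load the ring-shaped MCM2 to MCM7 helicase onto DNA. The kinase CDC7 with its activator DBF4 then fires the origin, CDC45 and the GINS complex join the ring to form the active helicase, and primase, the replicative polymerases and the sliding clamp PCNA build the new strands. Most of these genes are transcribed under E2F factors at the entry into S phase, and in pancreatic ductal adenocarcinoma (PDAC), where loss of the CDKN2A inhibitor is frequent, this restraint on E2F is often weakened.

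Total RNA was sequenced from 3 established human PDAC lines, PANC-1, MIA PaCa-2 and BxPC-3. Every line was given the vehicle DMSO, GW3965, 1E5 or 3A4, with ligands at 10 µM for 48 h, in 3 libraries per group and 36 in all. GW3965 is a synthetic agonist of LXR, the oxysterol-sensing nuclear receptors known as liver X receptors, and 1E5 and 3A4 are code names of compounds that the labels class as LXR inverse agonists. No group carried a transgene or engineered allele according to the labels. The medium was RPMI 1640 for BxPC-3 and DMEM for MIA PaCa-2 and PANC-1, each with 10% fetal bovine serum, so line and medium cannot be told apart. The titles call the libraries biological replicates without stating separate cultures, and p-values therefore measure only the spread among these libraries, which may be technical.

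BxPC-3 libraries held between 19605935 and 25888304 counts and PANC-1 libraries between 14960970 and 26026684. MIA PaCa-2 was uneven: its DMSO libraries held between 3609582 and 10996848 counts and its GW3965 libraries between 2701393 and 13631719, against 23675670 to 25503827 with 1E5. All 50 genes passed the filter on low counts in every fit. Levels are given in CPM, counts per 1000000 of the TMM-scaled library total, and differences as log2 fold changes ± standard error (SE) from edgeR's quasi-likelihood test, called at a Benjamini-Hochberg adjusted p under 0.05 over all genes of the fit. For these levels the libraries were scaled within each line, so libraries of different lines were not scaled to each other. Of the 6 epithelial markers, all had counts in BxPC-3 and PANC-1, while EPCAM had none in MIA PaCa-2 under DMSO, and CDH2, among the 3 mesenchymal markers, had none in MIA PaCa-2. Other measures also moved with 1E5. The share of counts from mitochondrial genes was 7.55% ± 0.0303 (SD, n = 3) under DMSO and 2.04% ± 0.721 under 1E5 in MIA PaCa-2. In PANC-1 it lay between 5.998% and 7.228% under DMSO and was 2.69%, 6.59% and 3.91% in the 1E5 replicates, so that replicate 2 was inside the DMSO range. This replicate stood apart from the other 1E5 libraries of PANC-1, with the mesenchymal marker VIM at 5870 CPM against 2870 and 2660 CPM, and without it 39 of the 50 genes were called lower there under 1E5 (40 with it). The summed level of the 6 epithelial markers went from between 1360 and 1690 CPM under DMSO to between 540 and 607 CPM under 1E5 in MIA PaCa-2, and from between 3260 and 5100 CPM to between 768 and 952 CPM in PANC-1. KRT8, KRT18 and KRT19 made up nearly all of these sums. The means of the other 3 in PANC-1 were 28.9 ± 5.44 and 35.2 ± 6.85 CPM for EPCAM under DMSO and 1E5, 47.5 ± 4.07 and 72.5 ± 45 CPM for CDH1, and 5.83 ± 0.298 and 7.03 ± 0.847 CPM for KRT7. The summed level of 13 markers of other cell types (immune, endothelial, fibroblast, endocrine and acinar) went from between 286 and 297 CPM to between 9.18 and 28.9 CPM in MIA PaCa-2 and from between 55.1 and 181 CPM to between 5.36 and 17.2 CPM in PANC-1. A single collagen gene made up most of each DMSO sum, COL1A2 at 247 ± 2.52 CPM in MIA PaCa-2 and COL1A1 at 102 ± 60.8 CPM in PANC-1. PTPRC, CD3E, PECAM1, INS, GCG, PRSS1, CPA1 and AMY2A, markers of immune, endothelial, endocrine and acinar cells, were at 0 in all these groups. The immune marker CD14, however, was at 17.3 ± 2.72 CPM under DMSO and 0.266 ± 0.237 CPM under 1E5 in MIA PaCa-2. The endothelial marker CDH5 was at 23.7 ± 2.08 and 0.204 ± 0.353 CPM there. In PANC-1, CD14 was at 0.894 ± 0.209 and 0.345 ± 0.165 CPM, and CDH5 was at 0 in each group. The part of these values in the 1E5 results was not tested. In these bulk libraries, fewer cells transcribing a gene and less RNA of it per cell cannot be told apart.

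Under 1E5 the replication genes fell together in MIA PaCa-2 and PANC-1, and none of them was called in BxPC-3. The summed level of the 50 genes in the MIA PaCa-2 libraries was 4420, 4760 and 3700 CPM under DMSO and 1260, 1330 and 1090 CPM under 1E5. In PANC-1 it was 3210, 2150 and 2940 CPM under DMSO and 1300, 1390 and 1210 CPM under 1E5. In BxPC-3 it was 4950, 3990 and 4550 CPM under DMSO and 4690, 3990 and 4480 CPM under 1E5. All 1E5 libraries of MIA PaCa-2 and PANC-1 were below all DMSO libraries of the same line, and the BxPC-3 groups overlapped. The 1E5 sums were 1230 ± 123 CPM in MIA PaCa-2 and 1300 ± 88.8 CPM in PANC-1 (SD, n = 3), and the DMSO sums were 4290 ± 541 CPM and 2770 ± 551 CPM. As each line was scaled by itself, the sums of the lines can be compared only roughly.

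**Figure D1:**
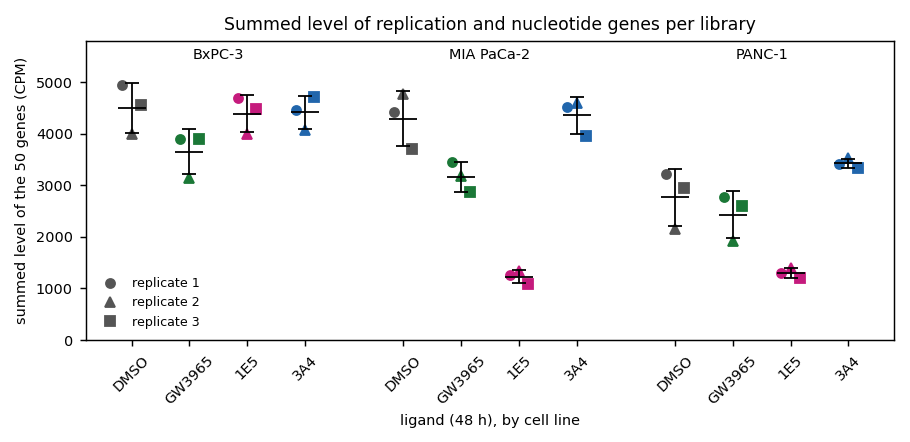
Summed level of the 50 genes in CPM (vertical axis, from 0) for each ligand in each cell line; symbols are the 3 libraries of a group by replicate number, and the bar with whiskers is their mean ± SD. The 1E5 libraries of MIA PaCa-2 lie between 1090 and 1330 CPM and those of PANC-1 between 1210 and 1390 CPM, below every other library of their line.

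In MIA PaCa-2, 43 of the 50 genes were lower under 1E5 and 0 were higher, where 23.4% of all 16254 genes tested were called lower and 23.6% higher. Their median log2 fold change was -1.73, against 0.05 for all genes tested, and 49 of the 50 values were below 0. For 44 of the 50, every 1E5 library was below every DMSO library, which was so for 28.7% of all genes. In PANC-1, 40 of the 50 were lower and 0 were higher, where 19.3% of all 18544 genes were called lower and 19.7% higher. Their median was -1.24, against 0.02 for all genes, 47 values were below 0, and for 40 genes all 1E5 libraries were below all DMSO libraries, against 23.5% of all genes. The genes lower in both lines numbered 35, which is 81.4% of those lower in MIA PaCa-2 and 87.5% of those lower in PANC-1. With 43 and 40 of the 50 called, an overlap near this size follows from the counts alone and is no measure of agreement between the lines.

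**Figure D2:**
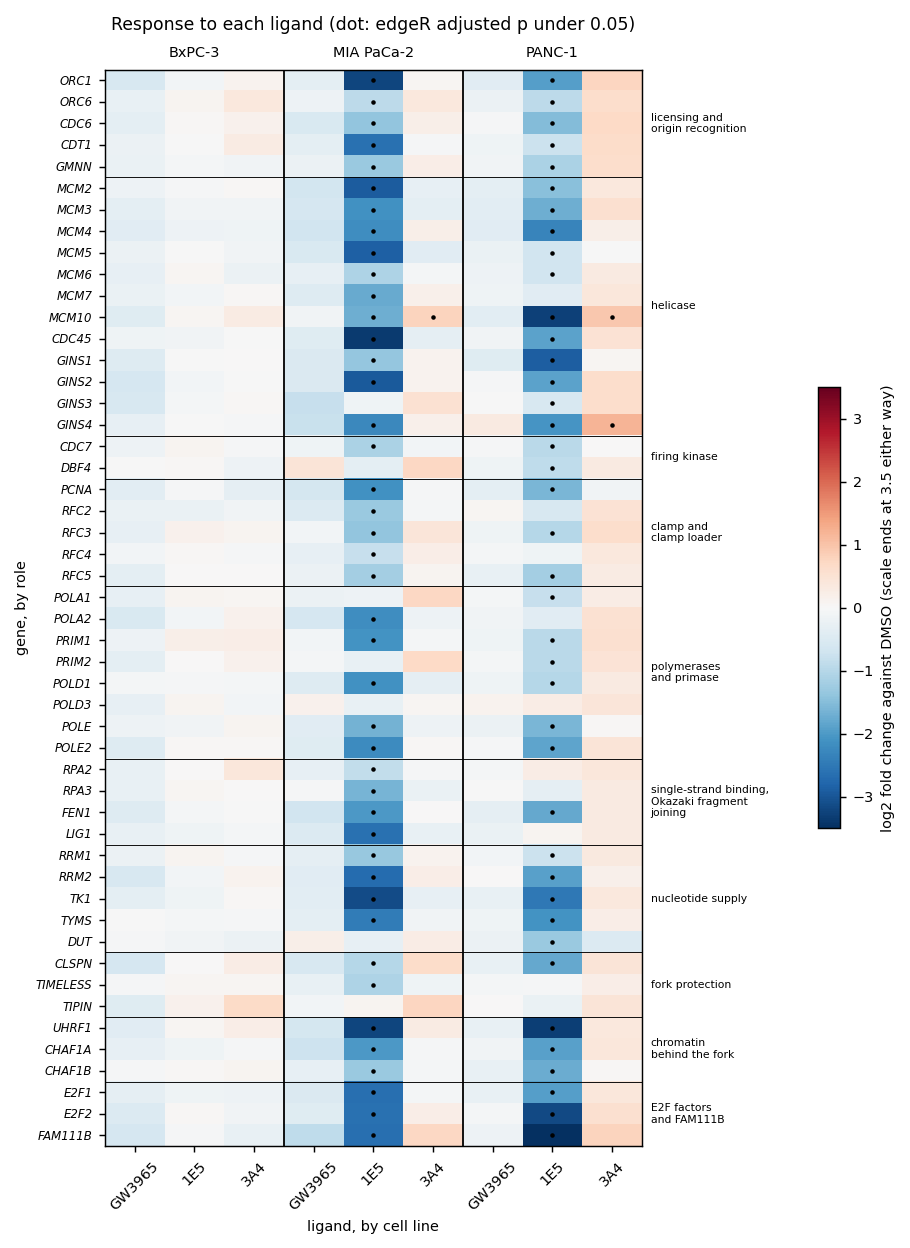
Log2 fold change against DMSO (colour, blue lower and red higher, scale ending at 3.5 either way) of each of the 50 genes, ordered by role, for GW3965, 1E5 and 3A4 in each line; a dot marks an edgeR adjusted p under 0.05. The dotted cells are almost all in the 1E5 columns of MIA PaCa-2 (43 genes) and PANC-1 (40 genes), and none is in a BxPC-3 column.

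All 5 licensing genes fell under 1E5 in both responding lines, with a median of -1.38 (MIA PaCa-2) and -1.12 (PANC-1) on the log2 scale. ORC1, the largest subunit of the origin recognition complex and the one that is lost after S phase begins, was at 29.9, 36.7 and 30.8 CPM under DMSO in MIA PaCa-2 and at 2.84, 4.21 and 3.59 CPM under 1E5. It fell by 3.20 ± 0.218 (9.17-fold, edgeR adjusted p = 7.93e-07). CDT1, which brings the MCM ring to the origin, was at 63.3, 62.6 and 45.5 CPM under DMSO and 8.89, 9.1 and 10.3 CPM under 1E5, a log2 fold change of -2.61 ± 0.18 (edgeR adjusted p = 8.35e-07). Neither gene had overlapping groups in that line. In PANC-1, ORC1 was at 21.1, 11.2 and 20.3 CPM under DMSO and 5.6, 5.55 and 2.59 CPM under 1E5 (-1.93 ± 0.338, edgeR adjusted p = 0.000999). CDC6, the ATPase that loads the ring with CDT1, was at 59.9, 35.9 and 49.1 CPM under DMSO and 21.5, 14.4 and 14.3 CPM under 1E5 there (-1.53 ± 0.25, edgeR adjusted p = 0.000648). Replicate 2 was the lowest DMSO library of PANC-1 for both genes and still above all 1E5 libraries. ORC6 and GMNN, the geminin that holds CDT1 back after licensing, also fell in both lines, with log2 fold changes between -0.92 and -1.31.

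The helicase genes fell in 11 of 12 cases in each line, with medians of -2.15 (MIA PaCa-2) and -1.79 (PANC-1). CDC45, the factor that turns the loaded ring into a moving helicase, was at 72.9, 65.5 and 66.1 CPM under DMSO in MIA PaCa-2 and at 7.6, 7.69 and 4.66 CPM under 1E5. This log2 fold change of -3.36 ± 0.194 was a 10.2-fold fall (edgeR adjusted p = 3.48e-07). MCM2, one of the ring's subunits, was at 346, 372 and 253 CPM under DMSO and 44.3, 49.2 and 37.1 CPM under 1E5 (-2.90 ± 0.198, edgeR adjusted p = 7.93e-07). In PANC-1 the helicase genes with the smallest p were others. MCM10, which helps activate the ring, was at 21.3, 11.7 and 18.6 CPM under DMSO and 1.67, 1.69 and 1.93 CPM under 1E5 (-3.28 ± 0.264, edgeR adjusted p = 5.42e-06). GINS1, a subunit of the GINS complex that holds CDC45 on the ring, was at 42, 29.1 and 45.7 CPM under DMSO and 4.73, 5.42 and 5.65 CPM under 1E5 (-2.88 ± 0.213, edgeR adjusted p = 2.93e-06). The 1E5 and DMSO libraries were separate for all 4 of these results.

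Not all helicase subunits moved to the same extent. Of the ring, MCM6 had a log2 fold change of -1.08 (MIA PaCa-2) and -0.66 (PANC-1), and MCM7 had -1.76 and -0.41, the last not called (edgeR adjusted p = 0.105). Of the GINS complex, GINS3 had -0.15 in MIA PaCa-2 (edgeR adjusted p = 0.702) and -0.56 in PANC-1 (edgeR adjusted p = 0.038), while GINS2 had -2.93 and -1.86. GINS4 was uneven in MIA PaCa-2, at 23, 96.4 and 89.4 CPM under DMSO and 13.3, 10.5 and 19.7 CPM under 1E5, and its SE of 0.635 there was the largest of the 50. Its gene overlaps exons of genes on the other strand, and the strand setting of the counting is not given in the sources used here. The origin-firing kinase was also uneven between its parts: CDC7 fell in both lines, by 1.11 ± 0.245 in MIA PaCa-2 (edgeR adjusted p = 0.00267) and by 0.95 ± 0.192 in PANC-1 (edgeR adjusted p = 0.00245). Its activator DBF4 was at 19.6, 23.6 and 23.8 CPM under DMSO and 19.2, 16 and 18.1 CPM under 1E5 in MIA PaCa-2, a difference that was not called (-0.33, edgeR adjusted p = 0.252). In PANC-1 the DBF4 libraries were at 21.5, 20.6 and 24.4 CPM under DMSO and 9.26, 13.9 and 13 CPM under 1E5, a called fall of 0.88 ± 0.17 (edgeR adjusted p = 0.00184).

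PCNA, the clamp that holds the polymerases on DNA, was among the most abundant of the 50 genes and fell in both lines. In MIA PaCa-2 it was at 288, 362 and 279 CPM under DMSO and 87, 71.5 and 54.5 CPM under 1E5 (-2.13 ± 0.181, edgeR adjusted p = 2.98e-06). In PANC-1 it was at 214, 132 and 190 CPM under DMSO and 59.8, 62.5 and 53.1 CPM under 1E5 (-1.61 ± 0.198, edgeR adjusted p = 9.36e-05). All 1E5 libraries were below all DMSO libraries in each line, and reads from its pseudogenes could be counted with it. The genes of the clamp loader, which opens PCNA and closes it around DNA, fell by less: RFC2, RFC3, RFC4 and RFC5 had log2 fold changes between -0.80 and -1.39 in MIA PaCa-2, all called. In PANC-1 RFC3 (-1.0) and RFC5 (-1.19) were called, and RFC2 (-0.56, edgeR adjusted p = 0.111) and RFC4 (-0.15, edgeR adjusted p = 0.501) were not.

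Among the 8 polymerase and primase genes, 5 fell in MIA PaCa-2 and 6 did in PANC-1, with medians of -1.87 and -0.94. POLD1, the catalytic subunit of the lagging-strand polymerase delta, was at 111, 106 and 120 CPM under DMSO and 22, 25.2 and 31 CPM under 1E5 in MIA PaCa-2 (-2.11 ± 0.166, edgeR adjusted p = 1.94e-06). PRIM1, the catalytic subunit of primase, was at 17.5, 28 and 21.8 CPM under DMSO and 4.65, 6.37 and 4.77 CPM under 1E5 there (-2.10 ± 0.22, edgeR adjusted p = 1.27e-05). In PANC-1, POLE, the catalytic subunit of the leading-strand polymerase epsilon, was at 116, 89.4 and 115 CPM under DMSO and 31.9, 37.6 and 36.9 CPM under 1E5 (-1.59 ± 0.135, edgeR adjusted p = 7.85e-06). Its partner POLE2 fell by 1.85 ± 0.213 in PANC-1 (edgeR adjusted p = 6.1e-05) and by 2.20 in MIA PaCa-2. The polymerase alpha-primase complex, which starts every new strand, was split in MIA PaCa-2: POLA2 (-2.18) and PRIM1 fell, and POLA1 (-0.17, edgeR adjusted p = 0.60) and PRIM2 (-0.27, edgeR adjusted p = 0.335) were not called. In PANC-1 it was POLA2 that was not called (-0.39, edgeR adjusted p = 0.145), while POLA1 fell by 0.81, PRIM1 by 0.94 and PRIM2 by 0.93. POLD3, an accessory subunit of polymerase delta, was called in neither line, at -0.27 and 0.26.

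The genes for single-strand binding and for joining Okazaki fragments had the widest gap between the medians of the lines among the 10 roles. All 4 fell in MIA PaCa-2, with a median of -1.81, and 1 of 4 fell in PANC-1, where the median was -0.12. LIG1 (ENSG00000105486, GRCh38 chr19:48115445-48170603), the ligase that seals the fragments, was at 63.1, 59.4 and 53.7 CPM under DMSO and 7.74, 11.2 and 10.1 CPM under 1E5 in MIA PaCa-2 (-2.60 ± 0.164, edgeR adjusted p = 5.43e-07). The PANC-1 libraries had 29.6, 25 and 27.7 CPM under DMSO and 25.9, 37.6 and 23.7 CPM under 1E5 (0.08 ± 0.201, 95% interval -0.36 to 0.52, edgeR adjusted p = 0.775). Its groups overlapped in PANC-1 and were apart in MIA PaCa-2. RPA2 and RPA3, subunits of the protein that coats single-stranded DNA, had log2 fold changes of -0.86 and -1.63 in MIA PaCa-2, both called, and 0.27 and -0.31 in PANC-1, neither called. FEN1, the nuclease that trims the flaps between fragments, was the gene that fell in both lines, by 2.00 ± 0.282 in MIA PaCa-2 (edgeR adjusted p = 0.00011) and by 1.78 ± 0.195 in PANC-1 (edgeR adjusted p = 4.1e-05). FEN1 shares exon sequence with the same-strand gene FADS2 in the annotation.

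Of the genes for nucleotide supply, 4 of 5 were lower in MIA PaCa-2, with a median of -2.46, and 5 of 5 in PANC-1, with a median of -1.90. TYMS, which makes thymidylate from deoxyuridylate, was at 210, 214 and 207 CPM under DMSO and 39.6, 42 and 33.2 CPM under 1E5 in MIA PaCa-2 (-2.46 ± 0.146, edgeR adjusted p = 3.75e-07). TK1, the salvage kinase for thymidine, was at 93.2, 110 and 92.3 CPM under DMSO and 11.9, 13.6 and 8.05 CPM under 1E5 (-3.14 ± 0.194, 8.84-fold, edgeR adjusted p = 4.59e-07). TYMS and TK1 were lower in every 1E5 library than in any DMSO library of MIA PaCa-2. In PANC-1, TYMS was at 138, 78.5 and 119 CPM under DMSO and 28.2, 27.4 and 23.3 CPM under 1E5 (-2.09 ± 0.224, edgeR adjusted p = 3.74e-05). TK1 in PANC-1 was at 85.4, 48.6 and 68.4 CPM under DMSO and 12.6, 12.9 and 10.3 CPM under 1E5 (-2.50 ± 0.258, edgeR adjusted p = 2.86e-05). RRM1 and RRM2, the subunits of the ribonucleotide reductase of S phase, fell by 1.32 and 2.7 in MIA PaCa-2 and by 0.76 and 1.90 in PANC-1. DUT, which removes dUTP before it can be built into DNA, differed: its MIA PaCa-2 libraries were at 32.7, 36 and 26.1 CPM under DMSO and 34.3, 24.4 and 19.2 CPM under 1E5, overlapping and not called (-0.29 ± 0.221, edgeR adjusted p = 0.302). In PANC-1 DUT was at 96.3, 93.7 and 81.5 CPM under DMSO and 35.2, 44.3 and 31.8 CPM under 1E5 (-1.29 ± 0.143, edgeR adjusted p = 4.65e-05). DUT (GRCh38 chr15:48331011-48343373) has an antisense gene and several pseudogenes in the annotation, so its counts are uncertain.

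**Figure D3:**
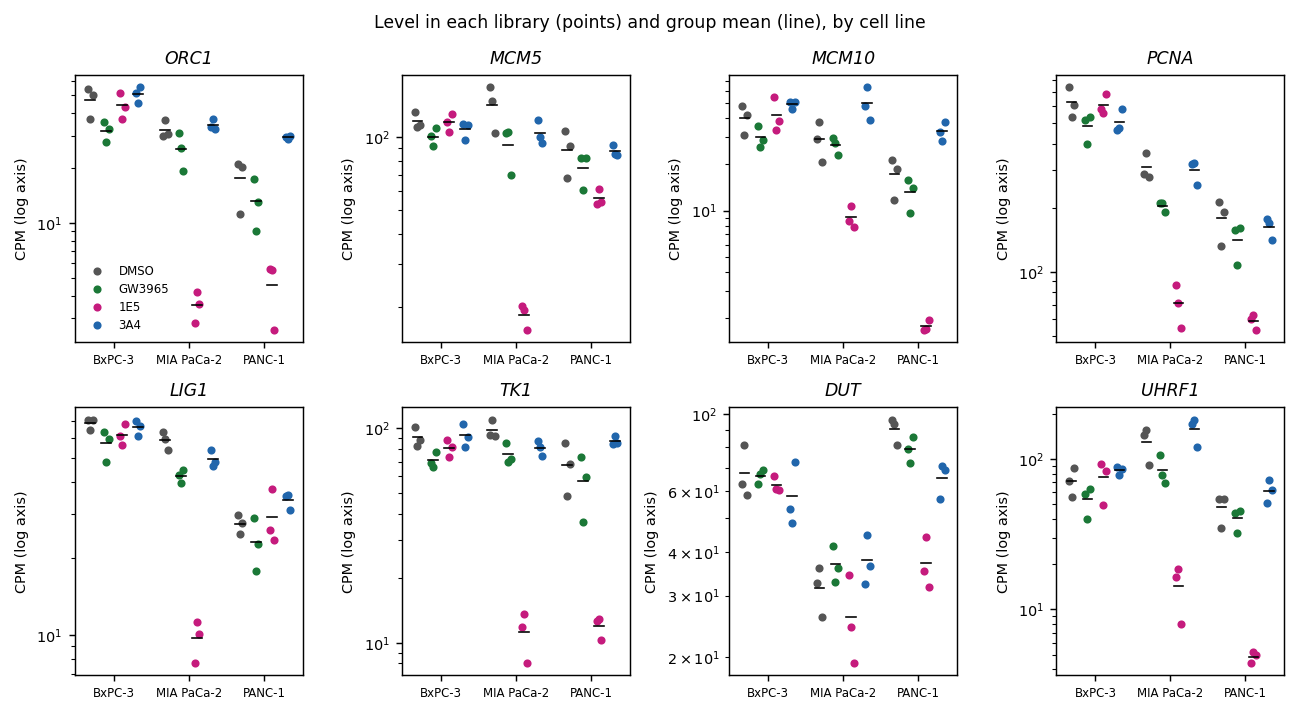
Level of 8 of the 50 genes in CPM (vertical axes, log scale) in each of the 36 libraries; points are libraries, coloured by ligand, and lines are group means, with the groups of each cell line side by side. LIG1 in PANC-1 (23.7 to 37.6 CPM under 1E5) and DUT in MIA PaCa-2 (19.2 to 34.3 CPM under 1E5) overlap their DMSO groups, whereas ORC1, MCM5, MCM10, PCNA, TK1 and UHRF1 do so in neither line.

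Most genes of the remaining roles fell as well. UHRF1, which reads hemimethylated DNA behind the fork so that methylation is copied, was at 145, 155 and 91.7 CPM under DMSO and 16.4, 18.5 and 7.94 CPM under 1E5 in MIA PaCa-2 (-3.20 ± 0.32, edgeR adjusted p = 8.94e-06). In PANC-1 it was at 53.9, 34.8 and 54.6 CPM under DMSO and 4.41, 5.19 and 4.95 CPM under 1E5 (-3.30 ± 0.221, edgeR adjusted p = 1.73e-06). CHAF1A and CHAF1B, subunits of the factor that deposits histones on new DNA, also fell in both lines, with values between -1.29 and -2.02. E2F1 was at 71.8, 68.3 and 67.3 CPM under DMSO and 10.7, 14.1 and 8.24 CPM under 1E5 in MIA PaCa-2 (-2.65 ± 0.238, edgeR adjusted p = 4.52e-06) and fell by 1.93 in PANC-1. E2F2, the other activating factor among the 50, fell by 2.60 ± 0.326 in MIA PaCa-2 and by 3.17 ± 0.334 in PANC-1. The largest change of any of the 50 genes was that of FAM111B, a protease gene expressed in S phase (GRCh38 chr11:59107185-59127410), in PANC-1. Its libraries there were at 20.3, 20.2 and 31 CPM under DMSO and 1.15, 0.488 and 0.89 CPM under 1E5, a 27.9-fold fall (-4.80 ± 0.318, edgeR adjusted p = 1.58e-06). Of the fork protection genes, which hold helicase and polymerase together when a fork stalls, TIMELESS fell in MIA PaCa-2 only (-1.09, against -0.04 in PANC-1) and its partner TIPIN was called in neither (0.10 and -0.24). CLSPN fell by 1.78 in PANC-1 and by 1.01 in MIA PaCa-2, where its DMSO libraries (31.2, 38.5 and 17.1 CPM) and 1E5 libraries (14.3, 20 and 9.5 CPM) overlapped and its edgeR adjusted p of 0.0292 became 0.149 without DMSO replicate 2.

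In BxPC-3 no such change was found. There 0 of the 50 genes were called under 1E5 by edgeR, 0 had an unadjusted p under 0.05, and DESeq2 and limma-voom also called 0. The background was the same, since 0% of the 18042 genes tested were called in that comparison. The log2 fold changes of the 50 genes lay between -0.22 and 0.21 with a median of -0.01 and a median SE of 0.152. Their 95% intervals reached from -0.62 at the lowest (RFC2) to 0.71 at the highest (ORC6), so a fall as large as the median of MIA PaCa-2 or of PANC-1 lay outside every one of them. PCNA, for example, was at 743, 536 and 609 CPM under DMSO and 581, 559 and 685 CPM under 1E5, which overlap (95% interval -0.39 to 0.29). For 0 genes were all 1E5 libraries below all DMSO libraries, and for 2 they were all above, against 4.06% and 4.45% of all genes.

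The difference between lines was tested itself, in a fit of all 36 libraries over 22132 genes. The 1E5 response differed among the 3 lines for 45 of the 50 genes, where 38.5% of all genes were called. The smallest edgeR adjusted p-values were those of LIG1 (2.71e-09), MCM5 (4.48e-09) and TK1 (1.56e-08). The 5 not called were ORC6 (edgeR adjusted p = 0.0654), GINS3 (0.40), POLA1 (0.0558), POLD3 (0.473) and TIPIN (0.606).

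The falls in MIA PaCa-2 and PANC-1 also differed from each other, in a contrast added after the data had been seen. With PANC-1 minus MIA PaCa-2, 14 of the 50 genes were called higher (a smaller fall in PANC-1) and 5 lower (a larger fall in PANC-1), where 12.1% and 16.3% of all genes were called in these directions. The genes with the smaller fall in PANC-1 included LIG1, with a difference of 2.59 log2 units (edgeR adjusted p = 6.91e-09), and MCM5 (ENSG00000100297, GRCh38 chr22:35400063-35425430), with 2.12 (edgeR adjusted p = 2.83e-07). MCM5 libraries were at 162, 141 and 104 CPM under DMSO and 20.2, 19.4 and 16 CPM under 1E5 in MIA PaCa-2. In PANC-1 they were at 106, 67.8 and 92.3 CPM and at 53.3, 61 and 53.9 CPM, so that a 7.33-fold fall in MIA PaCa-2 stood beside a 1.58-fold fall in PANC-1, and both were called. The others in this direction were ORC1, CDT1, MCM2, MCM7, CDC45, RFC4, POLA2, PRIM1, POLD1, RPA2, RPA3 and TIMELESS, with differences between 0.56 and 1.77. The 5 with the larger fall in PANC-1 were FAM111B (-2.22), MCM10 (-1.66), GINS1 (-1.61), DUT (-1.08) and PRIM2 (-0.75). By role, 3 of the 4 genes for single-strand binding and fragment joining had the smaller fall in PANC-1, against 0 of 5 for nucleotide supply and 0 of 3 for chromatin behind the fork.

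Of the 8 genes called lower in MIA PaCa-2 but not in PANC-1, the difference between lines was called for 7, the exception being RFC2. Of the 5 called lower in PANC-1 but not in MIA PaCa-2 (GINS3, DBF4, POLA1, PRIM2 and DUT), it was called for PRIM2 and DUT.

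**Figure D4:**
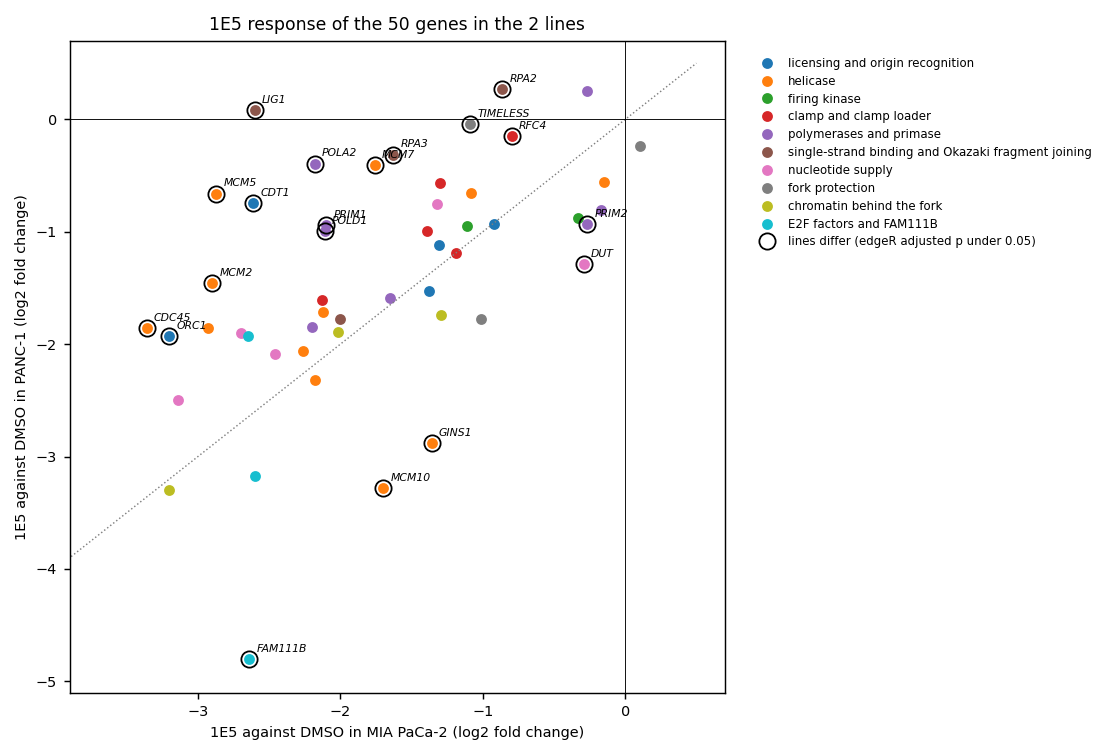
Log2 fold change under 1E5 in MIA PaCa-2 (horizontal) and in PANC-1 (vertical) for the 50 genes, coloured by role; the dotted line marks equal changes, and rings mark genes whose change differed between these lines at an edgeR adjusted p under 0.05. LIG1 lies at -2.60 and 0.08 far above the line, and FAM111B at -2.64 and -4.80 far below it.

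Subunits outside the 50 genes were read beside those among them. These partners were ORC2 to ORC5, RFC1, RPA1, RRM2B and the polymerase subunits POLD2, POLD4, POLE3 and POLE4. In MIA PaCa-2, while ORC1 and ORC6 fell, ORC3 (0.50, edgeR adjusted p = 0.0125), ORC4 (0.69, edgeR adjusted p = 0.00251) and ORC5 (0.60, edgeR adjusted p = 0.021) rose, and ORC2 was not called (0.37, edgeR adjusted p = 0.0998). ORC4 was at 46.8, 47.5 and 46.1 CPM under DMSO and 84.9, 69.9 and 71.9 CPM under 1E5, without overlap. In PANC-1 none of these 4 was called, with values between -0.30 and 0.34. RFC1, the large subunit of the clamp loader, rose in MIA PaCa-2 (0.43, edgeR adjusted p = 0.032) while RFC2 to RFC5 fell, and was at 0.00 in PANC-1 (edgeR adjusted p = 0.998). RRM2B, the p53-inducible reductase subunit that works outside S phase, was at 15.1, 16.3 and 14.2 CPM under DMSO and 38.5, 33.7 and 35 CPM under 1E5 in MIA PaCa-2, a rise of 1.23 (edgeR adjusted p = 0.00173), whereas RRM2 fell. In PANC-1 RRM2B was not called (-0.05, edgeR adjusted p = 0.801). RPA1 and POLD2 fell in both lines, by 1.26 and 1.45 in MIA PaCa-2 and by 0.46 and 0.55 in PANC-1. POLE3, a small subunit of polymerase epsilon, fell in MIA PaCa-2 (-0.51, edgeR adjusted p = 0.0202) and rose in PANC-1 (0.45, edgeR adjusted p = 0.0204). Its partner POLE4 (-0.19 and 0.03) and the polymerase delta subunit POLD4 (-0.83 and 0.49) were called in neither line.

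**Figure D5:**
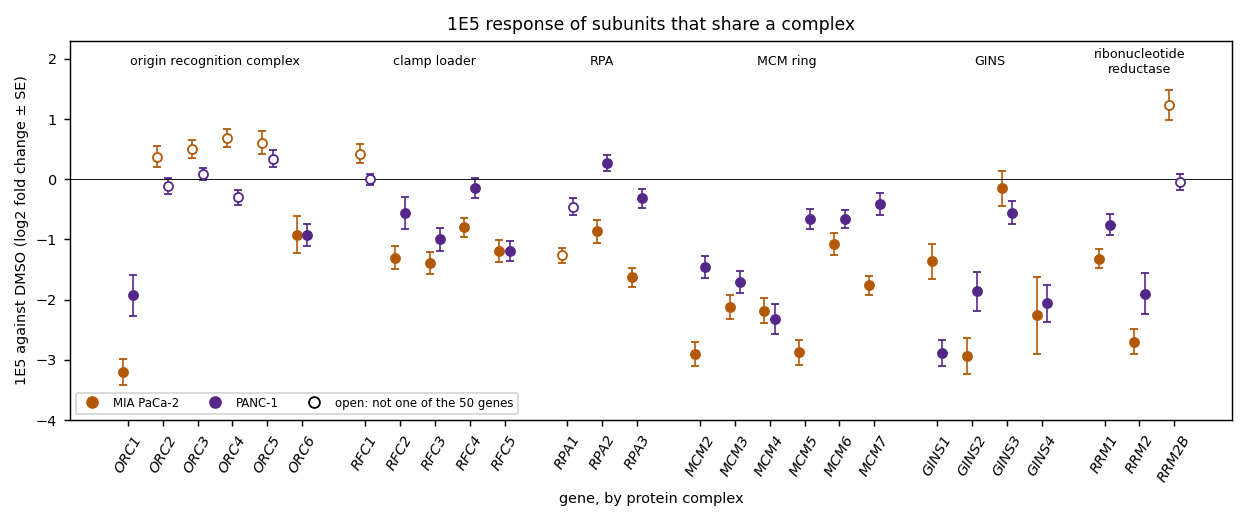
Log2 fold change under 1E5 ± SE (vertical axis) for the subunits of 6 complexes in MIA PaCa-2 and PANC-1; filled points are among the 50 genes and open points are partners outside them. In MIA PaCa-2 the open points of ORC3, ORC4, ORC5, RFC1 and RRM2B lie above 0, at 0.43 to 1.23, beside filled points of the same complexes below 0.

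Lists of related genes outside the 50 gave mixed counts under 1E5. Of all genes, 23.6% were called higher and 23.4% lower in MIA PaCa-2, and 19.7% and 19.3% in PANC-1. Of 25 further replication genes, 5 rose and 15 fell in MIA PaCa-2 and 1 rose and 14 fell in PANC-1, with medians of -0.90 and -0.55. ASF1B, a histone chaperone of S phase, had the smallest p in each line (-2.77 ± 0.148 in MIA PaCa-2, edgeR adjusted p = 2.19e-07, and -2.69 ± 0.237 in PANC-1, edgeR adjusted p = 1.01e-05). Of 16 further nucleotide genes, 2 rose and 8 fell in MIA PaCa-2 and 3 rose and 5 fell in PANC-1. IMPDH2, the gate to guanine nucleotides, fell in MIA PaCa-2 (-1.42) and rose in PANC-1 (0.97). Of 21 genes of E2F, RB and S-phase control, 6 rose and 7 fell in MIA PaCa-2 and 4 rose and 9 fell in PANC-1. CDKN1A, the p21 inhibitor of cyclin-dependent kinases, was at 5.79, 3.04 and 2.32 CPM under DMSO and 71.2, 60.4 and 49 CPM under 1E5 in MIA PaCa-2, a rise of 3.99 ± 0.315 (edgeR adjusted p = 1.99e-06). Its PANC-1 values were 62.5, 75.6 and 69.1 CPM under DMSO and 40.3, 67.1 and 100.0 CPM under 1E5, so its groups overlapped, and the difference was 0.00 (edgeR adjusted p = 0.992). In MIA PaCa-2 the control list lay somewhat above the shares of all genes called under 1E5 in both directions (23.6% higher and 23.4% lower). In PANC-1 the rises of the control list were close to the share of all genes, and its falls were above it. Rises in the replication and nucleotide lists were near or below the shares of all genes in each line, and falls were above them. With 16 to 25 genes per list, small gaps from these shares carry no weight. CCNA2, the S-phase cyclin A, fell in each (-1.98 and -2.34), and E2F8, a repressor of E2F targets, fell by 2.60 and 2.77.

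The other inverse agonist, 3A4, at the same dose and time, lowered none of these genes by the test, in a fit that did not use the replicate numbers. In MIA PaCa-2 the summed level was 4510, 4600 and 3950 CPM under 3A4, within the spread of its DMSO libraries. In PANC-1 it was 3420, 3520 and 3330 CPM, above all DMSO libraries, and in BxPC-3 it was 4450, 4080 and 4710 CPM. The called changes were few and upward: 0 of 50 in BxPC-3, where 0.0333% of all genes were called, 1 in MIA PaCa-2, where 7.3% of all genes were called higher and 6.45% lower, and 2 in PANC-1, where 3.53% were called higher and 3.84% lower. The share of the 50 genes called was therefore at or below the background in MIA PaCa-2 and near it in PANC-1. In BxPC-3, 3 genes had an unadjusted p under 0.05 (CDT1, RPA2 and TIPIN, all with positive values) and DESeq2 and limma-voom called 0. How many of all genes reached that unadjusted p was not counted.

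MCM10 was the gene called in both. In MIA PaCa-2 it was at 29.3, 37.8 and 20.6 CPM under DMSO and 48.3, 64.1 and 38.9 CPM under 3A4, a rise of 0.77 ± 0.24 (edgeR adjusted p = 0.0496). PANC-1 had it at 21.3, 11.7 and 18.6 CPM and at 32.3, 28.5 and 37.6 CPM (0.93 ± 0.233, edgeR adjusted p = 0.0349). The 3A4 libraries were above the DMSO libraries in each line. GINS4 was the other gene called in PANC-1, at 4.59, 8.23 and 6.64 CPM under DMSO and 10.6, 19.9 and 13.9 CPM under 3A4 (1.19 ± 0.291, edgeR adjusted p = 0.0331). These calls lay close to the threshold, and leaving out 1 library often ended them. Without DMSO replicate 2, MCM10 had 0.71 (edgeR adjusted p = 0.118) and GINS4 had 1.38 (edgeR adjusted p = 0.0545) in PANC-1, and without DMSO replicate 3 they had 0.99 (edgeR adjusted p = 0.0836) and 1.20 (edgeR adjusted p = 0.0936). Without 1E5 replicate 2, 7 of the 50 genes were called in PANC-1, 1 of them lower. That library is in neither group compared and enters the fit through the filter, the scaling and the spread.

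In PANC-1 most of the 50 genes had small positive values under 3A4: 47 of 50 log2 fold changes were above 0 (48.6% of all genes were below 0), with a median of 0.39 (0.23 without DMSO replicate 2), and for 28 genes all 3A4 libraries were above all DMSO libraries, against 19.0% of all genes. The licensing genes had values between 0.61 and 0.75. The 1 gene with all 3A4 libraries below DMSO, as for 18.3% of all genes, was DUT, at 57, 70.7 and 68.9 CPM against 96.3, 93.7 and 81.5 CPM (-0.47, edgeR adjusted p = 0.0677, not called). In MIA PaCa-2 the median was 0.08, with 8 genes all above and 5 all below, against 19.0% and 17.1% of all genes. The 3A4 response differed among lines for 1 of the 50 genes, DBF4 (edgeR adjusted p = 0.0464), where 5.89% of all genes were called. DBF4 was at 19.6, 23.6 and 23.8 CPM under DMSO and 34.2, 44.7 and 31.9 CPM under 3A4 in MIA PaCa-2, and at 26.3, 19.7 and 19.5 CPM and 16, 20.2 and 21.7 CPM in BxPC-3.

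The compounds were then compared directly, 3A4 against 1E5 within each line, with 1 pair of compounds in 3 lines and p-values adjusted over all genes of a line. In MIA PaCa-2, 46 of the 50 genes were higher under 3A4 than under 1E5 and 0 were lower, where 17.2% of all genes were called higher and 15.1% lower. In PANC-1, 46 were higher and 0 lower, where 18.5% of all genes were called higher and 18.8% lower. The median differences were 1.80 and 1.58 log2 units. MCM10 differed by 4.21 ± 0.272 in PANC-1 (18.5-fold, edgeR adjusted p = 2.06e-06) and FAM111B by 5.57 ± 0.326 (47.5-fold, edgeR adjusted p = 1.13e-06). LIG1 differed by 2.35 ± 0.162 in MIA PaCa-2 (edgeR adjusted p = 1.25e-06) and was not called in PANC-1 (0.22 ± 0.2, edgeR adjusted p = 0.413). These contrasts share the 1E5 libraries with the comparisons to DMSO above. In BxPC-3, 0 of 50 genes differed between the compounds by edgeR, where 0.144% of all genes were called. There 3 genes had an unadjusted p under 0.05, a measure not counted over all genes, and DESeq2 and limma-voom called 0. The 95% intervals of the differences reached from -0.60 (PCNA) to 1.02 (TIPIN) with a median difference of 0.03. A p above the threshold does not show that the compounds act alike there.

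GW3965, the agonist, gave small shifts below the control that did not pass the test gene by gene, in a fit that did not use the replicate numbers. The summed level under GW3965 was 2780, 1920 and 2600 CPM in PANC-1, 3450, 3180 and 2860 CPM in MIA PaCa-2 and 3900, 3150 and 3900 CPM in BxPC-3. In BxPC-3 and MIA PaCa-2 all GW3965 libraries were below all DMSO libraries of the line, and in PANC-1 the groups overlapped. Each GW3965 library of PANC-1 was still below the DMSO library of the same replicate number (3210, 2150 and 2940 CPM). The design does not state that these numbers are a pairing. edgeR called 0 of the 50 genes in each line, where 0.00539% of all genes in PANC-1, 0.105% in MIA PaCa-2 and 0.848% in BxPC-3 were called lower. For 0 genes in PANC-1, 17 in MIA PaCa-2 and 20 in BxPC-3 the unadjusted p was under 0.05, and DESeq2 called 0, 1 and 3. With the replicate block edgeR called 6 in BxPC-3. Shares of all genes for these counts are not given here, so the counts have no background. In BxPC-3 all 50 log2 fold changes were below 0, where 50.6% of all genes were, with a median of -0.28. For 20 genes the GW3965 libraries were all below the DMSO libraries, against 8.69% of all genes. In MIA PaCa-2, 47 of the 50 were below 0 with a median of -0.40 (-0.00142 over all genes). There 19 genes were separated downward, against 7.08% of all genes. In PANC-1, 45 were below 0 with a median of -0.15 (-0.000427 over all genes) and 0 were separated, against 5.4% of all genes.

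FAM111B in BxPC-3 illustrates the size of these shifts, at 89.7, 85.1 and 95.8 CPM under DMSO and 64.9, 51.4 and 63.5 CPM under GW3965 (-0.59, edgeR adjusted p = 0.113). POLA2 was at 80.8, 62.1 and 69.4 CPM and at 57.4, 41.1 and 48.2 CPM (-0.53, edgeR adjusted p = 0.113). Both were separated without overlap and neither was called. In MIA PaCa-2 the smallest adjusted p was that of CHAF1A, at 101, 100.0 and 75.4 CPM under DMSO and 64.8, 61.5 and 41.4 CPM under GW3965 (-0.71, edgeR adjusted p = 0.176). The response to GW3965 differed among lines for 0 of the 50 genes by edgeR, with 0 at an unadjusted p under 0.05, where 0.104% of all genes were called. Outside the 50 genes, SAMHD1, which breaks down deoxynucleotides, fell under GW3965 in BxPC-3 from 289 ± 69.9 to 96.7 ± 17.9 CPM (-1.58, edgeR adjusted p = 0.00475). GW3965, 1E5 and 3A4 were each set against the same DMSO libraries of a line, so their values are not independent of each other.

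The lines also differed in these genes under the vehicle alone. Under DMSO, 25 of the 50 genes were lower and 8 higher in MIA PaCa-2 than in BxPC-3, where 32.7% and 24.6% of all genes were called, with a median of -0.46 (-0.13 over all genes). In PANC-1, 36 were lower and 2 higher than in BxPC-3, where 27.1% and 25.5% of all genes were called, with a median of -0.93. The 2 higher in PANC-1 were the nucleotide genes TYMS (0.91) and RRM2 (1.01), which were also higher in MIA PaCa-2 than in BxPC-3 (1.79 and 1.15). By role in PANC-1 against BxPC-3, 5 of 5 licensing genes, 11 of 12 helicase genes and 6 of 8 polymerase and primase genes were lower, whereas of the 5 nucleotide genes 1 was lower and 2 were higher. FAM111B was lower than in BxPC-3 in PANC-1 (-2.08) and MIA PaCa-2 (-2.58). Between PANC-1 and MIA PaCa-2, 28 genes were lower in PANC-1 and 5 higher (21.7% and 29.5% of all genes), among them GINS4 (-3.39) on one side and DUT (1.53) on the other.

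Levels of different genes were compared per kilobase of annotated exon within each line, since each line was scaled by itself. On this scale PCNA was the highest of the 50 genes under DMSO in every line, at 428 ± 71.4 CPM per kb in BxPC-3, 211 ± 30.9 CPM per kb in MIA PaCa-2 and 121 ± 28.7 CPM per kb in PANC-1 (SD, n = 3). The next were MCM7 in BxPC-3 (77.9 ± 12.5 CPM per kb) and TYMS in MIA PaCa-2 (85.1 ± 1.44 CPM per kb) and PANC-1 (45.2 ± 12.3 CPM per kb). In MIA PaCa-2 the levels per kb of TYMS, MCM3 (82.2 ± 13.1) and MCM7 (80.8 ± 16.2) did not differ beyond their spread. At the low end were E2F2, at 3.60 and 1.52 CPM per kb in BxPC-3 and MIA PaCa-2, and GINS4, at 1.18 CPM per kb in PANC-1. The median of the 50 genes was 15.4, 13.6 and 8.62 CPM per kb in the same order of lines.

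The promoters were examined because the 50 genes moved together. RefSeq windows (GRCh38.p14) from 250 bases before to 50 bases after the annotated start were at hand for 43 of the 50 genes. An E2F-type motif, written here as TTTCCCGC, TTTCGCGC, TTTGCCGC or TTTGGCGC on either strand, was present in 21 of the 43 windows (48.8%). It was present in 4.44% of the windows of all 15842 protein-coding genes and in 3.33% of all 27305 windows, and in 10 of 51 windows (19.6%) of the replication, nucleotide and control genes outside the 50. CCAAT on either strand was present in 53.5% of the 43 windows and in 35.7% of all windows. It was present in 36.4% of the windows of protein-coding genes and in 24 of the 51 windows (47.1%) outside the 50. A match describes the letters and is not an observed binding site. The median log2 fold change under 1E5 was -2.13 (MIA PaCa-2) and -1.59 (PANC-1) for genes with an E2F-type match, and -1.31 and -1.06 for the 22 genes without one. Their ranges overlapped widely. With a match they were -3.2 to -0.151 (MIA PaCa-2) and -3.3 to 0.0832 (PANC-1), and without one -3.36 to 0.103 and -3.28 to -0.0411. Genes lacking a window, among them FAM111B, MCM4 and MCM5, are in neither group. Whether the motif has a part in the fall was not tested. The following windows of 150 bases end at the base before the annotated start and are written 5′ to 3′ on the strand of the gene, with E2F-type matches in capitals, to show how their number and place vary. PCNA, POLE and POLA1 hold 1 match each at different distances from the start, E2F1 holds 2 close to it, and the 3 matches of MCM6 include 2 that overlap each other. MCM10 holds none. Of the genes printed, POLA1 was called lower under 1E5 in PANC-1 and not in MIA PaCa-2, and the others were called lower in both lines.
PCNA, chr20:5126623-5126772, minus strand: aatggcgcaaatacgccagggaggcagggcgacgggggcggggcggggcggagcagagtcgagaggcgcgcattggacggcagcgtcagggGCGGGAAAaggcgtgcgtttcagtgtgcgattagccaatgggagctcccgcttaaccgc
MCM6, chr2:135876444-135876593, minus strand: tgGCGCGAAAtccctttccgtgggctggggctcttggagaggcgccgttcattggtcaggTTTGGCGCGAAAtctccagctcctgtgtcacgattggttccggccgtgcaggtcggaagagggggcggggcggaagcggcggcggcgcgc
E2F1, chr20:33686386-33686535, minus strand: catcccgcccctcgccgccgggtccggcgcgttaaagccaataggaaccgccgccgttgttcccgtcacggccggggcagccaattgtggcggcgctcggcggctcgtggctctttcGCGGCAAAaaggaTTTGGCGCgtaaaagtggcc
POLE, chr12:132687343-132687492, minus strand: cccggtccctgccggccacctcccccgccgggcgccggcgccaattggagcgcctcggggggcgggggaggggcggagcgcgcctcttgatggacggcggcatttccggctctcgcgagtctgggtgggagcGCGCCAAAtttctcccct
POLA1, chrX:24693768-24693917, plus strand: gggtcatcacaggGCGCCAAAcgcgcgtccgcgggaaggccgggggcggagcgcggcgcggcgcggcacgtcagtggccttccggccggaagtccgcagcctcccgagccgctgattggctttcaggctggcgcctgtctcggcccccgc
MCM10, chr10:13161408-13161557, plus strand: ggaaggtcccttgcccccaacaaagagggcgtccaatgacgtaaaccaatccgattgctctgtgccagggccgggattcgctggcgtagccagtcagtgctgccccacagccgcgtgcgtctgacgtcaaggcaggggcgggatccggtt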

How the data were processed

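RNA of 36 libraries (3 lines, 4 treatments, 3 libraries each) was analysed from the table of raw read counts per gene that the authors deposited. Trim Galore 0.4.4, HISAT2 2.0.2, SAMtools 1.3, StringTie 1.3.1c and GRCh38 are named, per the submitters' processing notes, without their order. The sources used here give no annotation, strand setting or rule for multiply matching reads, so counts of overlapping genes (exons of 8 of the 50 genes overlap a same-strand gene and those of 17 an other-strand gene) and of the 12 genes with named pseudogenes are uncertain. The table gives Ensembl identifiers, and symbols were matched for 57532 of 58243 genes. The 407 lines naming a transcript and 8 naming an unnamed locus were left out (at most 0.00396% of a library).

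edgeR 4.0.16 (R 4.3.3) was fitted per line to 12 libraries with TMM scaling and filterByExpr (count of 10, total of 15), leaving 18544 genes in PANC-1, 16254 in MIA PaCa-2 and 18042 in BxPC-3. Contrasts of lines and of responses between lines used 1 fit of all libraries. The two-sided quasi-likelihood F test was Benjamini-Hochberg adjusted over all genes of a fit, with a threshold of 0.05, and was tested on simulated data. Intervals are 95%. Lists were described by counts and medians, without a test. Every one of the 50 genes could be named. Full statistics were kept for the 2 called genes of smallest p per role and contrast, the 3 of smallest p per test of a difference among lines, and, outside the 50, at most 4 called genes per list plus partners of the same complex. Values outside that rule stand beside these for comparison. The genes and lists were chosen with earlier results of these data known. Alternatives were RLE scaling, no filter, DESeq2 1.42.0, limma-voom (limma 3.58.1), the replicate block, the compared groups alone, all libraries in 1 fit, thinning, and leaving out libraries. No replicates agreed within counting noise, as chi-square per degree of freedom was 8.1 to 140 over 36 pairs. Gene positions and exon lengths are those of GENCODE 29.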

Additional observations from a re-analysis of the deposited data

Results flagged for a closer look

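By the test of the ligand by line interaction, the response to 1E5 differed among the 3 lines for 45 of the 50 genes. Of all genes, 38.5% were called in that test. The smallest edgeR adjusted p-values were those of LIG1 (2.71e-09), MCM5 (4.48e-09) and TK1 (1.56e-08). TK1 fell in MIA PaCa-2 and PANC-1 and not in BxPC-3, LIG1 fell in MIA PaCa-2 alone of the 3 lines, and MCM5 fell 7.33-fold in MIA PaCa-2 and 1.58-fold in PANC-1. The response to 3A4 differed among lines for 1 of the 50 genes, DBF4, with an edgeR adjusted p of 0.0464, where 5.89% of all genes were called. This call was lost with RLE scaling (0.0939), with no filter (0.101), with the replicate block (0.0541) and when any 1 replicate number was left out (0.167 to 0.415, all edgeR adjusted p).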

How the results depend on the processing

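Under every alternative run, the 1E5 calls stayed between 41 and 43 genes in MIA PaCa-2 and between 37 and 43 in PANC-1, and at 0 in BxPC-3. Thinning all libraries to the shallowest gave 43 and 39, and leaving out the 2 shallowest MIA PaCa-2 libraries gave 43. The 1E5 response differed among lines for 39 to 46 genes and between PANC-1 and MIA PaCa-2 for 15 to 23. The 3A4 calls were less stable. In MIA PaCa-2 (1 gene) they were 3 with RLE scaling, 2 with no filter, 4 with DESeq2, 5 with all 36 libraries in 1 fit, 0 without the 1E5 libraries (added after seeing the data) and 0 to 1 leaving out 1 library. In PANC-1 (2 genes) they were 0 with no filter, 10 with DESeq2, 9 with only the groups compared, 4 with limma-voom, 8 without the 1E5 libraries (added after seeing the data), 7 without 1E5 replicate 2, and 0 to 1 leaving out 1 library of the compared groups, or 0 to 7 with 1E5 replicate 2 among those left out. The 3A4 difference among lines (1 gene) was 0 with RLE scaling, with no filter and in every leave-one-out fit, and 2 with limma-voom. GW3965 calls (0) became 3 in BxPC-3 and 1 in MIA PaCa-2 with DESeq2. The cause of these shifts was not tested. Shares of all genes called under the alternatives, the replicate block included, are not given here, so these counts have no background.

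With the replicate block, 1E5 calls were 40 in PANC-1 and 43 in MIA PaCa-2, GW3965 calls 6 in BxPC-3, 3A4 calls 6 (PANC-1) and 4 (MIA PaCa-2), and 3A4 differences among lines 2. Same-numbered libraries of a line had correlations of 0.0198 to 0.338 (BxPC-3), -0.0482 to 0.207 (MIA PaCa-2) and -7.12e-05 to 0.252 (PANC-1), not over 0.1 for every pair, so the numbers were not taken as a pairing. As a hint from the data and not the design, 12, 11 and 12 of 12 libraries (BxPC-3, then MIA PaCa-2, then PANC-1) correlated best with their own number. The fits without the block may therefore keep an effect shared by a replicate number in their spread. Of 613 alternatives run on 44 results of single genes, 582 kept direction and call, 31 lost the call (CLSPN under 1E5 in MIA PaCa-2, MCM10 and GINS4 under 3A4, DBF4 among lines) and 0 reversed. Shallow MIA PaCa-2 controls limit its low genes most: E2F2 was at 5.8 to 11.3 CPM there.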

Other observations

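Of the 62 genes in the lists outside the 50, 5 were called higher and 5 lower under 3A4 in MIA PaCa-2, where 7.3% and 6.45% of all genes were. In PANC-1 it was 4 higher and 1 lower, where 3.53% and 3.84% of all genes were. The genes called in both lines were CDC25A, TOP1, CTPS1 and RBL2, and their agreement was not tested. CDC25A, the phosphatase that activates CDK2, rose by 0.89 in MIA PaCa-2 (edgeR adjusted p = 0.0342) and by 0.85 in PANC-1 (edgeR adjusted p = 0.0367). TOP1, which relaxes DNA ahead of the fork, rose by 0.87 (edgeR adjusted p = 0.00642) and by 0.63 (edgeR adjusted p = 0.0105). CTPS1, which makes CTP, rose by 0.58 (edgeR adjusted p = 0.0455) and by 0.73 (edgeR adjusted p = 0.0463). RBL2, a pocket protein that represses E2F targets, fell by 0.48 (edgeR adjusted p = 0.0313) and by 0.60 (edgeR adjusted p = 0.0482). In MIA PaCa-2, POLD2 (-0.46), ASF1B (-0.49), TK2 (-0.72) and SHMT1 (-0.67) were also called lower and CDK6 (1.06) higher, and in PANC-1 CHEK1 (0.50) was called higher. CDKN1A rose under 3A4 in MIA PaCa-2, from 3.72 ± 1.83 to 16.8 ± 4.50 CPM (SD, n = 3, edgeR adjusted p = 0.00194), in the line where 1E5 brought it to 60.2 ± 11.1 CPM.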
